A study of Mus musculus with 4 samples.

Results

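The unfolded protein response and the integrated stress response were followed through 39 genes, taken from a list of gene names. All 39 were on the array, and 38 passed the filter on dim probes, out of 30199 gene names on the array and 16100 genes tested. Ero1l, an oxidase that recharges protein disulfide isomerase, was the member left out, because its probe was well above background in 1 of 4 AAV_Cre channels and 1 of 4 AAV_Null channels. The livers came from female C57B/6 mice aged 8 to 10 weeks. Both groups carried floxed Trib1 on both chromosomes, so the control differed from the treated group by the virus it received. AAV_Cre is an adeno-associated virus with Cre recombinase, which cuts out floxed sequence, and AAV_Null is the control virus. The promoter that drives Cre is not given in the sources used here. Whole liver was taken 1 week after the virus and after a fast of 4 hours, and the design text calls the treated animals liver-specific knockouts of Trib1. Each of 4 arrays compared 1 RNA labelled AAV_Cre with 1 RNA labelled AAV_Null, and AAV_Cre carried Cy5 on arrays 1 and 2 but Cy3 on the others. Whether each RNA came from a single animal or a pool is not stated, so p-values capture only how far arrays differ, which may be technical.

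The endoplasmic reticulum (ER) folds secreted and membrane proteins, and the hepatocyte secretes much of the plasma protein. When unfolded proteins build up there, the membrane sensors IRE1, PERK and ATF6 switch on chaperones, folding enzymes and the machinery that extracts misfolded proteins for degradation. PERK also phosphorylates the translation factor eIF2, a step shared with kinases that sense amino acid shortage, viral RNA or lack of heme, and this common arm, the integrated stress response, acts through the transcription factor ATF4 on amino acid and redox genes.

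The deleted gene was not lower in RNA labelled AAV_Cre. Trib1, a scaffold through which the ubiquitin ligase COP1 reaches C/EBPα, had log2 ratios of 0.64, 1.02, 1.09 and 1.01 on arrays 1 to 4 with the brightest RefSeq probe, and a fitted 0.94 ± 0.079 (SE, n = 4, limma adjusted p = 0.0210). A second RefSeq probe had 1.29 ± 0.11 (SE, n = 4), and another, assigned to another transcript, had -0.047 ± 0.049 (SE, n = 4). Cebpa, which encodes C/EBPα and was set beside Trib1 in this check, had log2 ratios of -0.76, -0.82, -0.51 and -0.27. The fit was -0.59 ± 0.064 (SE, n = 4, limma adjusted p = 0.0299). No direction for Cebpa RNA was set beforehand, so its values do not test the label. Which part of Trib1 is floxed is not given in the sources used here, and probes that lie outside it cannot test the label. Every direction here is therefore read from the labels, as the RNA labelled AAV_Cre relative to that labelled AAV_Null. The arrays held 43020 non-control spots each, of which 51.0% to 58.7% were well above background in a given dye, and 0 were saturated. Over all genes the correlation of log2 ratios was 0.664 for arrays 1 and 2, 0.488 for arrays 3 and 4, and 0.0669 to 0.189 for pairs with unlike dyes. Genes are not independent replicates. All 12 hepatocyte markers, albumin among them, were well above background in every channel.

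Some members' promoters carry the DNA elements through which these pathways are known to act, and they are shown so that the members' values can be read beside them. In RefSeq promoter sequences (assembly GRCm38.p6), 35 of the 39 members had an entry. The 250 bases before each gene start were searched on both strands. The ER stress element ERSE, which ATF6 and XBP1 read together with NF-Y, was spelled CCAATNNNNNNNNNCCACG, with its fixed parts 9 bases apart, and 10 of 35 members (28.6%) held it, against 35 of all 27025 genes (0.13%). The ERSE-II element, spelled ATTGGNCCACG, was in Herpud1 alone among the members (2.86%) and in 0.037% of all genes. The UPR element core, spelled TGACGTGG, was in Sec24d alone (2.86%) and in 0.603% of all genes, and read on the other strand it begins with the CCACG that ERSE also holds. The C/EBP-ATF composite element, which ATF4 binds with a C/EBP partner, was spelled TGATGNAA and stood in 5 of 35 members (14.3%) and in 3.91% of all genes. Of the 35 members, 16 held at least 1 of these elements and 19 held none, Ddit4, Ppp1r15a and Atf5 of the integrated stress response among them. Matches in 3 chaperones, in the degradation genes Derl3 (lowest ratio of the module) and Herpud1 (the ERSE-II) and in the 4 stress response genes that hold a composite element are printed 5′ to 3′ on the strand that carries the motif, with the fixed letters of the motif in capitals and the coordinates of the whole motif.
Hspa5, ERSE at chr2:34772025-34772043, + strand: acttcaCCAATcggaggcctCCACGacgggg
Dnajc3, ERSE at chr14:118937827-118937845, + strand: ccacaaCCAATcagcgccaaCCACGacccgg
Calr, ERSE at chr8:84847075-84847093, + strand: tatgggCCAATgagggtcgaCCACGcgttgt
Derl3, ERSE at chr10:75893242-75893260, - strand: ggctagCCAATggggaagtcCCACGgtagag
Herpud1, ERSE-II at chr8:94386377-94386387, + strand: gcgctgATTGGgCCACGttggac
Asns, composite at chr6:7693225-7693232, - strand: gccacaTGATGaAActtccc
Atf3, composite at chr1:191183436-191183443, + strand: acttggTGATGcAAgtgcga
Vldlr, composite at chr19:27216820-27216827, - strand: gagcgcTGATGcAActattg
Chac1, composite at chr2:119351049-119351056, - strand: caggagTGATGcAAcggcag

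The other holders of an ERSE were Hsp90b1 (2 matches), Creld2, Canx, Pdia6, Ero1lb and Syvn1, and Herpud1 also held a composite element. The match of Asns began 23 bases before the annotated start, and that of Hspa5 65 bases before it. The Vldlr match lay in the second of its RefSeq promoters. A match is a description of letters, and no binding was measured on these arrays. The members were listed as genes of the pathways these elements serve, so their higher share is no result of these arrays.

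**Figure D1:**
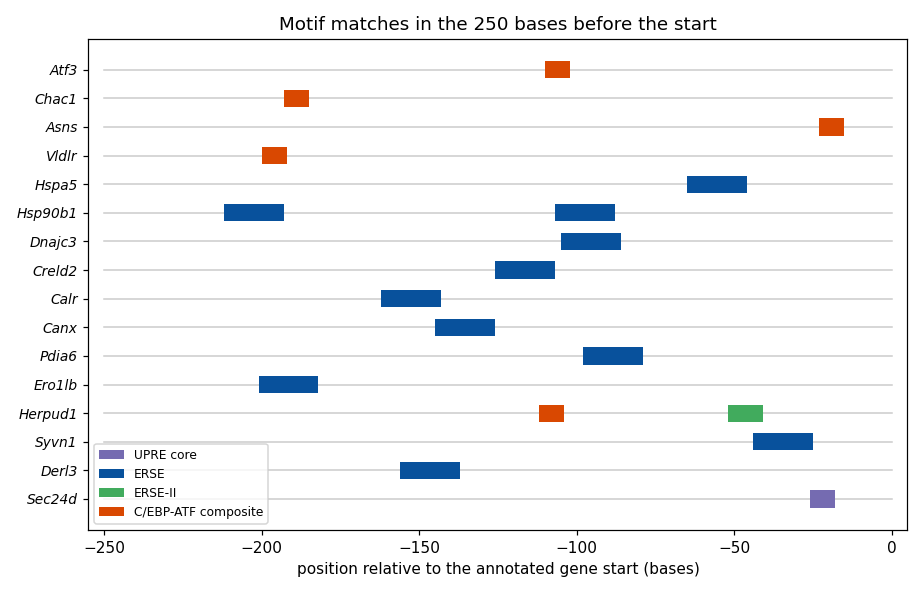
Position of each motif match in the 250 bases before the annotated start of the members that hold one (x axis, bases relative to the start, 0 at the start; y axis, gene). Bars are coloured by motif: composite elements stand in Atf3, Chac1, Asns, Vldlr and Herpud1, and Hsp90b1 has 2 ERSE matches.

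No member of the module passed the threshold in limma. Of 38 members tested, 0 were called higher and 0 lower at an adjusted p of 0.05, where 444 of all 16100 genes (2.76%) were called. The smallest adjusted p of a member was 0.0679, for Edem1. At an unadjusted p under 0.05 stood 5 members, Asns, Vldlr, Atf3 and Edem1 above 0 and Dnajc3 below 0, beside 22.6% of all genes. The median fitted log2 ratio of the members was -0.043, beside -0.0025 over all genes, and 15 members were above 0 and 23 below. Their fitted ratios ran from -0.72 to 1.51. The median size of the ratio without its sign was 0.124 in the module and 0.0938 over all genes.

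Agreement of sign across arrays was counted next. Of 36 members measured on all arrays, 7 had the same sign on 4 of 4, where 23.6% of all genes did. Asns, Vldlr and Edem1 were the 3 above 0 on every array (12.1% of all genes), and Ern1, Eif2ak4, Dnajc3 and Derl3 were the 4 below 0 (11.5%). These counts take 1 probe per gene, and other tested probes of Vldlr, Ern1 and Eif2ak4 were on both sides of 0. The normalised levels of the 2 RNAs did not overlap for Asns, Vldlr and Edem1, and did not for 5.73% of all genes. The members' ratios were more spread over arrays than those of other genes, with a median SD of 0.262 against 0.191 and a median SE of the fitted ratio of 0.107 against 0.063. Of 20 alternative settings, 7 called 1 to 3 of Asns, Vldlr and Edem1 and no other member.

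**Figure D2:**
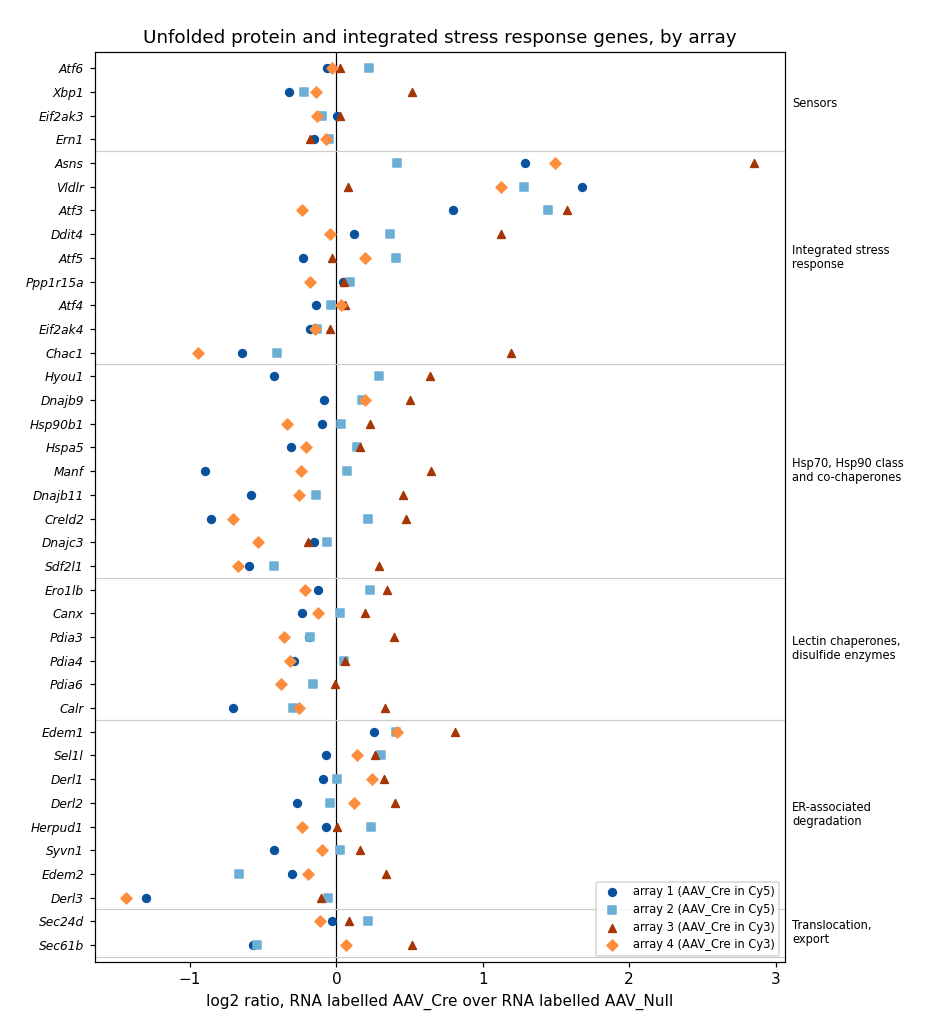
Log2 ratio between RNA labelled AAV_Cre and RNA labelled AAV_Null (x axis, above 0 where AAV_Cre is higher) for each of the 38 members tested (y axis, grouped by role), with 1 point per array, blue for AAV_Cre in Cy5 and brown or orange for AAV_Cre in Cy3. Asns, Vldlr and Edem1 lie above 0 on 4 of 4 arrays, and in the ER folding groups array 3 lies to the right and arrays 1 and 4 to the left.

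**Figure D3:**
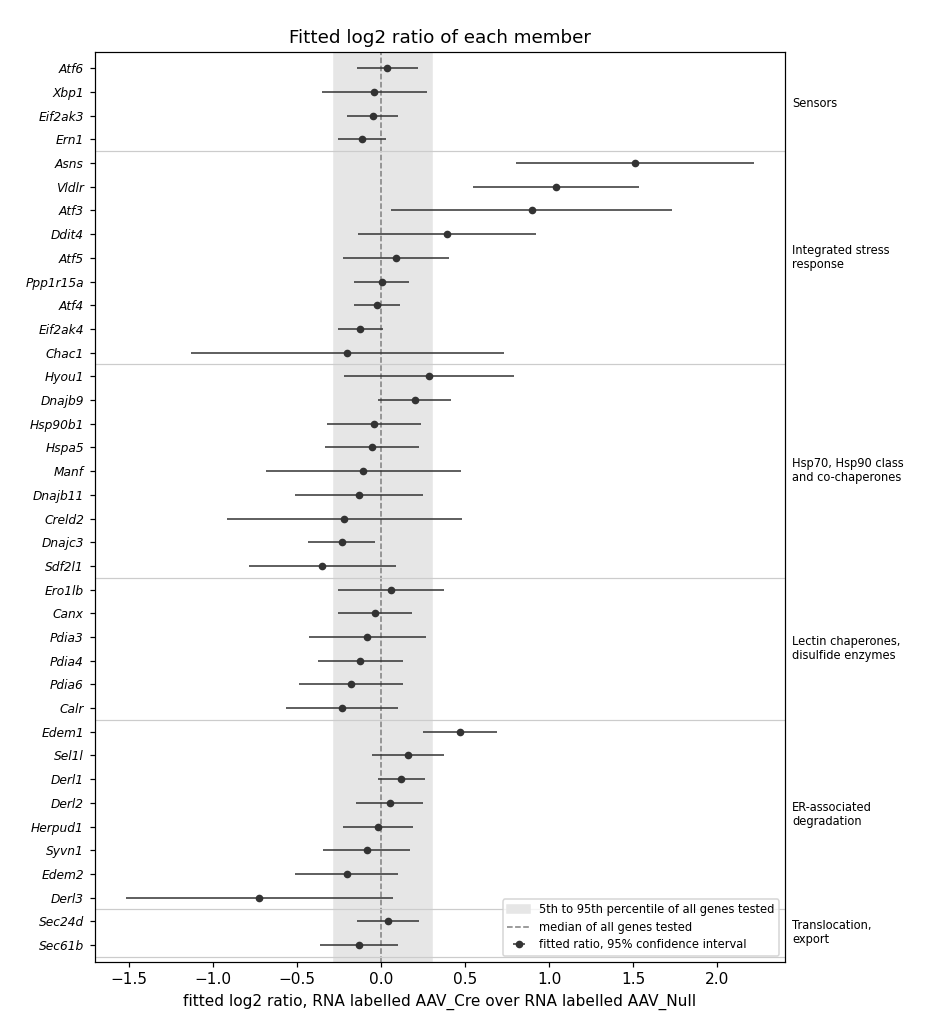
Fitted log2 ratio of each member (points) with its 95% confidence interval (bars), ordered by role, over the 5th to 95th percentile of all genes tested (grey band, -0.28 to 0.30) and their median (dashed line). Asns, Vldlr, Atf3, Ddit4 and Edem1 lie above the band, and Derl3 and Sdf2l1 lie below it.

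The 3 sensors and Xbp1 had fits near 0. Ern1 encodes IRE1, the kinase and RNase that splices Xbp1 RNA, and had log2 ratios of -0.15, -0.053, -0.18 and -0.071 on arrays 1 to 4. Each array was below 0, and the fitted ratio was -0.11 ± 0.054 (SE, n = 4, adjusted p = 0.297). A dimmer tested probe, assigned to another Ern1 transcript, had 0.014, -0.27, -0.22 and 0.36, with a fit of -0.028. Eif2ak3, which encodes the kinase PERK, had 0.0013, -0.10, 0.025 and -0.13. The arrays fell on either side of 0, with a fit of -0.052 ± 0.057 (SE, n = 4) and a 95% confidence interval of -0.20 to 0.099. Atf6, the sensor that is cut in the Golgi to free a transcription factor, had -0.066, 0.23, 0.021 and -0.031 and a fit of 0.037 ± 0.068 (SE, n = 4), which turned to -0.036 without array 2. Xbp1, the transcription factor made from the IRE1-spliced RNA, had -0.32, -0.22, 0.52 and -0.14. Array 3 stood above 0 and the other 3 below, the fit was -0.042 ± 0.12 (SE, n = 4), and it turned to 0.12 without array 4. The array reports total Xbp1 RNA, and its splicing was not measured here.

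The integrated stress response genes held the largest ratios of the module. Of the 9 tested, 6 were above 0 and 3 had an unadjusted p under 0.05 (22.6% of all genes did), with a median of 0.086 and a range of -0.20 to 1.51. Asns, asparagine synthetase, was measured by a probe at chromosome 6, 7625171 to 7625228 (mm9, as all probe positions here), which starts at base 1869 of its RefSeq transcript. Its log2 level was 10.33, 9.45, 11.04 and 9.50 in the RNAs labelled AAV_Cre of arrays 1 to 4, and 9.04, 9.04, 8.19 and 8.01 in those labelled AAV_Null. The lowest AAV_Cre level lay above the highest AAV_Null level. The log2 ratios were 1.29, 0.41, 2.85 and 1.49, with array 3 highest and array 2 lowest. The fit was 1.51 ± 0.27 (SE, n = 4), or 2.85-fold, with an interval of 0.80 to 2.22 and an adjusted p of 0.0688, which did not pass. The mean ratio was 0.85 with AAV_Cre in Cy5 and 2.17 with AAV_Cre in Cy3, the most negative dye effect of the module, at an adjusted p of 0.214.

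Vldlr, the very low density lipoprotein receptor that takes up triglyceride-rich particles and is a known ATF4 target, had the next largest ratio. On a probe at chromosome 19, 27324050 to 27324109, its log2 level was 10.65, 10.58, 9.81 and 10.33 in RNA labelled AAV_Cre and 8.97, 9.29, 9.73 and 9.21 in RNA labelled AAV_Null. The ratios were 1.68, 1.28, 0.080 and 1.12. Array 3 was near 0 and the other 3 were above 1, although the levels of the groups did not overlap. The mean was 1.48 with AAV_Cre in Cy5 and 0.60 with AAV_Cre in Cy3, the most positive dye effect of the module, at an adjusted p of 0.230. The fit was 1.04 ± 0.19 (SE, n = 4), or 2.06-fold, with an interval of 0.54 to 1.54 and an adjusted p of 0.0708. A second, dim probe of the same transcript was well above background in 3 AAV_Cre channels and 0 AAV_Null channels, so its AAV_Null side is only a bound, and the mean over both probes was 0.59. This second probe had -0.17, -0.15, 0.39 and 0.49 and a fit of 0.14 ± 0.051 (SE, n = 4). Its dye effect of -0.30 was opposite in sign to that of the probe used, so neither the shared sign nor the dye effect held on both probes. Across 20 alternative settings the adjusted p ran from 0.00264 to 0.25 for Asns, from 0.002 to 0.273 for Vldlr and from 0.00373 to 0.311 for Edem1, and each passed in 5 or 6 of them, a threshold of 0.1 included.

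Atf3, a stress-induced repressor of the ATF family, stood out for its spread. Its log2 level was 11.27, 9.27, 8.98 and 7.77 in RNA labelled AAV_Cre and 10.48, 7.83, 7.40 and 8.01 in RNA labelled AAV_Null, at chromosome 1, 192994547 to 192994606. Both RNAs of array 1 were far above those of the other arrays. The ratios of 0.79, 1.45, 1.58 and -0.24 were above 0 on arrays 1 to 3 and below 0 on array 4. The fit of 0.90 ± 0.32 (SE, n = 4), or 1.86-fold, had an adjusted p of 0.202, and it was 0.44 without array 3 and 1.35 without array 4. Ddit4, an inhibitor of the growth kinase complex mTORC1, had 0.12, 0.37, 1.13 and -0.047. Array 3 was the high one, and the fit of 0.39 ± 0.20 (SE, n = 4, adjusted p = 0.331) was 0.099 without array 3. Chac1, an enzyme that breaks down glutathione, ran from well below to well above 0, with -0.64, -0.41, 1.19 and -0.95. Array 3 alone was above 0, and the fit was -0.20 ± 0.36 (SE, n = 4) with an interval of -1.13 to 0.73.

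**Figure D4:**
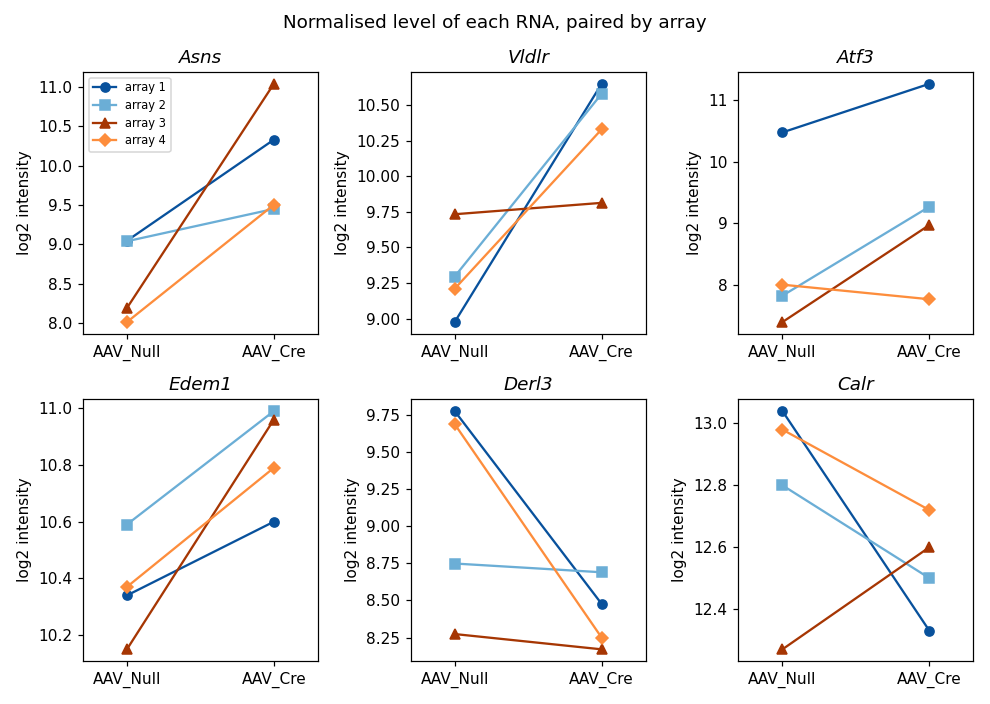
Normalised log2 intensity (y axis, each panel on its own scale that does not start at 0) of 6 members in RNA labelled AAV_Null and RNA labelled AAV_Cre (x axis), with a line joining the RNAs of each array. The groups do not overlap for Asns, Vldlr and Edem1, the lines of Atf3 and Calr cross in direction, and Derl3 is high in the AAV_Null RNAs of arrays 1 and 4.

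The remaining genes of this arm had fits near 0. Eif2ak4 encodes GCN2, the kinase that senses uncharged transfer RNA, and had -0.18, -0.13, -0.043 and -0.14, below 0 on 4 of 4 arrays, with a fit of -0.12 ± 0.052 (SE, n = 4, adjusted p = 0.251). Dimmer probes of other Eif2ak4 transcripts had -0.30, -0.83, 0.019 and 0.092 (fit -0.25) and -0.030, 0.019, 0.059 and -0.096 (fit -0.012). Atf4 had -0.14, -0.039, 0.055 and 0.028, split by dye orientation, and a fit of -0.025 ± 0.051 (SE, n = 4) with an interval of -0.16 to 0.11, which turned to 0.0014 without array 1. A brighter second Atf4 probe had an unmarked spot on array 2 alone, at 0.18. Atf5, a related transcription factor abundant in liver, had -0.23, 0.41, -0.030 and 0.19. Arrays 2 and 4 were above 0, the fit was 0.086 ± 0.12 (SE, n = 4), and it turned to -0.073 without array 2. Ppp1r15a encodes GADD34, which brings a phosphatase to eIF2, and had 0.046, 0.093, 0.052 and -0.18, with a fit of 0.0021 ± 0.062. The ATF4 mechanism runs through translation, and protein was not measured on these arrays.

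The Hsp70 and Hsp90 class chaperones and their partners had a median of -0.11, with 2 of 9 above 0. Hspa5 encodes BiP, the central ER chaperone, and had log2 ratios of -0.31, 0.14, 0.16 and -0.21. Arrays 1 and 4 were below 0 and arrays 2 and 3 above, and the fit was -0.054 ± 0.11 (SE, n = 4) with an interval of -0.33 to 0.23. Hsp90b1, the ER Hsp90, had -0.096, 0.028, 0.23 and -0.34 and a fit of -0.045 ± 0.11 (SE, n = 4). Manf, a small secreted partner of BiP, had -0.90, 0.070, 0.65 and -0.24, and Creld2, a cysteine-rich ER protein, had -0.86, 0.22, 0.47 and -0.71. In both, array 3 was highest and array 1 lowest, and the fits were -0.11 ± 0.22 (SE, n = 4) and -0.22 ± 0.27 (SE, n = 4). The direction of Creld2 turned without array 1, to 0.050, and without array 4, to 0.077.

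The J-domain proteins, which hand clients to BiP, differed among themselves. Dnajc3, or P58IPK, had -0.16, -0.062, -0.19 and -0.53 on a probe at chromosome 14, 119378131 to 119378190. All arrays were below 0, array 4 most, and the fit was -0.24 ± 0.075 (SE, n = 4), or 0.849 of the AAV_Null level, with an unadjusted p of 0.0284 and an adjusted p of 0.169. Dnajb9, or ERdj4, a known XBP1 target, had -0.084, 0.18, 0.51 and 0.20, and a second probe of the same transcript had 0.15, 0.12, 0.14 and 0.53. Its 2 probes had fits of 0.20 ± 0.082 (SE, n = 4) and 0.23. Dnajb11, or ERdj3, had -0.58, -0.14, 0.45 and -0.25 and a fit of -0.13 ± 0.14 (SE, n = 4), while its second probe had 0.15. Sdf2l1, which works with ERdj3, had -0.60, -0.43, 0.29 and -0.67. Array 3 was above 0 and the others below, and the fit of -0.35 ± 0.17 (SE, n = 4) was -0.11 without array 4 (adjusted p = 0.299 with all arrays). Hyou1, the exchange factor that resets BiP, was dim and was measured on arrays 1 to 3, at -0.43, 0.29 and 0.64. Its fit of 0.28 ± 0.18 (SE, 3 arrays) turned below 0 in 4 alternative settings, among them the authors' deposited log2 values.

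Among the lectin chaperones and disulfide enzymes, 1 of 6 was above 0 and the median was -0.10. Calr, calreticulin, which holds glycoproteins until they fold, had a log2 level of 12.33, 12.50, 12.60 and 12.72 in RNA labelled AAV_Cre and 13.04, 12.80, 12.27 and 12.98 in RNA labelled AAV_Null. Its ratios of -0.71, -0.29, 0.33 and -0.26 were below 0 on arrays 1, 2 and 4 and above 0 on array 3. The fit was -0.23 ± 0.13 (SE, n = 4) with an adjusted p of 0.355. Canx, the membrane form calnexin, had -0.24, 0.022, 0.20 and -0.13 and a fit of -0.036 ± 0.083 (SE, n = 4). The disulfide isomerases Pdia3 and Pdia4 had -0.19, -0.18, 0.40 and -0.36 and -0.29, 0.051, 0.061 and -0.31. Array 4 was the lowest in both. Pdia6 was measured on arrays 2 to 4, at -0.16, -0.011 and -0.38, with a fit of -0.18 ± 0.11 (SE, 3 arrays) and -0.20 on a dimmer probe of this transcript. The other probe of Pdia6, dim as well, was well above background in 0 AAV_Cre channels. Ero1lb, the second oxidase of this pathway, had -0.13, 0.23, 0.35 and -0.21 and a fit of 0.059 ± 0.12 (SE, n = 4).

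The ER-associated degradation (ERAD) genes held the member with the smallest p and the member with the lowest ratio. Edem1, a mannose-trimming factor that marks misfolded glycoproteins for removal, had a log2 level of 10.60, 10.99, 10.96 and 10.79 in RNA labelled AAV_Cre and 10.34, 10.59, 10.15 and 10.37 in RNA labelled AAV_Null, at chromosome 6, 108808920 to 108808979. The groups did not overlap, by a narrow margin. The ratios of 0.26, 0.40, 0.81 and 0.42 were above 0 on 4 of 4 arrays, and the fit was 0.47 ± 0.084 (SE, n = 4), or 1.39-fold, with an interval of 0.25 to 0.69 and an adjusted p of 0.0679. Edem2, a relative, had a dim probe (mean log2 intensity 7.12), with ratios of -0.30, -0.67, 0.34 and -0.20. Array 3 was above 0 and the others below, with a fit of -0.21 ± 0.12 (SE, n = 4).

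Derl3, a derlin of the channel that passes misfolded proteins to the cytosol, had log2 levels of 8.48, 8.69, 8.17 and 8.25 in RNA labelled AAV_Cre and 9.78, 8.75, 8.27 and 9.69 in RNA labelled AAV_Null. The AAV_Null RNAs of arrays 1 and 4 were the high ones, and the ranges of the groups overlapped. Its ratios were -1.30, -0.060, -0.10 and -1.44, and the fit was -0.72 ± 0.30 (SE, n = 4), or 0.605 of the AAV_Null level, with an interval of -1.52 to 0.069 and an adjusted p of 0.252. Without array 1 it was -0.42 and without array 4 -0.39. The other derlins had fits above 0 on the probes used. Derl1 had -0.091, 0.0069, 0.32 and 0.24 and a fit of 0.12 ± 0.053 (SE, n = 4), while a second probe of its transcript had 0.17, 0.35, 0.56 and 0.23 with a fit of 0.33 ± 0.078. Derl2 had -0.27, -0.045, 0.40 and 0.12 and a fit of 0.051 ± 0.076 (SE, n = 4), and its other probes had -0.017 and 0.080. The HRD1 ubiquitin ligase, encoded by Syvn1, had -0.43, 0.024, 0.16 and -0.098, and its adaptor Sel1l had -0.075, 0.30, 0.27 and 0.14. Herpud1, a scaffold of that ligase, had -0.069, 0.23, 0.0034 and -0.24. These 3 had fits of -0.086, 0.16 and -0.017, with intervals of -0.34 to 0.17, -0.054 to 0.37 and -0.23 to 0.19.

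Protein entry and exit were represented by Sec61b and Sec24d. Sec61b, a subunit of the channel that admits new proteins to the ER, had -0.57, -0.54, 0.52 and 0.063. Arrays 1 and 2 were below 0 and arrays 3 and 4 above, and the fit was -0.13 ± 0.089 (SE, n = 4). A second, dimmer probe of the same transcript had -0.10, -0.28, 0.67 and 0.29 and a fit of 0.15 ± 0.083 (SE, n = 4), so both probes were lower with AAV_Cre in Cy5 while their fits fell on opposite sides of 0. Its dye effect had the smallest p of the module, 0.0060 before and 0.0842 after adjustment. Sec24d, which loads cargo into COPII vesicles, had -0.030, 0.22, 0.088 and -0.11 and a fit of 0.041 ± 0.071 (SE, n = 4). Over the module, 0 members had a dye effect at an adjusted p of 0.05, where 2.68% of all genes did. Of the members measured on all arrays, 3 were below 0 on both arrays with AAV_Cre in Cy5 and above 0 on both others, beside 15.0% of all genes, and 0 had the opposite split, beside 11.9%. The dye effect cannot be told apart from a difference between the RNAs of arrays 1 and 2 and those of the other 2 arrays, which the SE leave out.

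**Figure D5:**
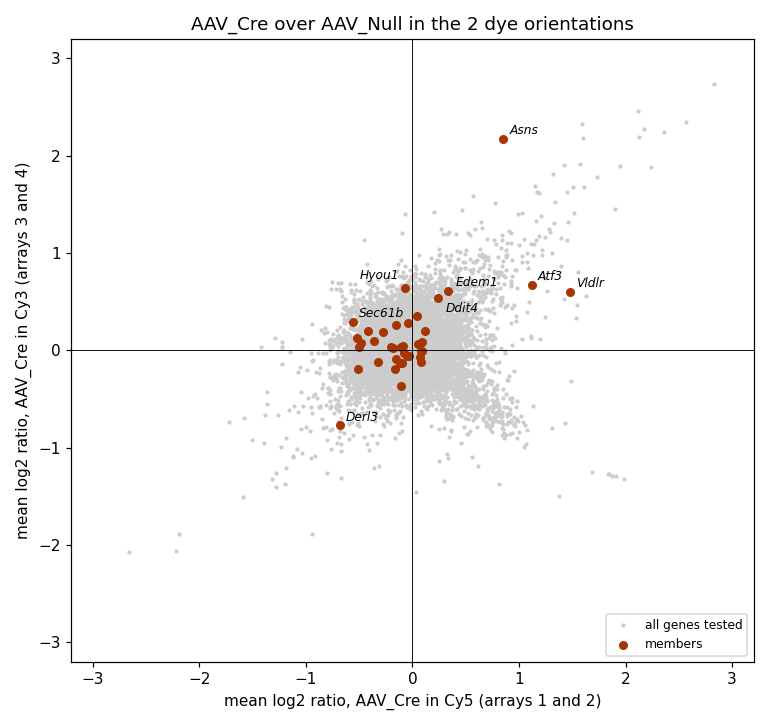
Mean log2 ratio with AAV_Cre in Cy5 (x axis, arrays 1 and 2) against AAV_Cre in Cy3 (y axis, arrays 3 and 4) for all genes tested (grey) and the members (brown). Asns, Vldlr, Atf3, Edem1 and Ddit4 lie above 0 in both orientations, Derl3 lies below 0 in both, and Sec61b lies below 0 in Cy5 and above 0 in Cy3.

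The ratios of the ER genes differed between arrays, and most members shared the direction of each array. Of the ER folding and degradation members, 1 of 22 was above 0 on array 1, 14 of 23 on array 2, 20 of 23 on array 3 and 5 of 22 on array 4. Their medians were -0.28, 0.024, 0.32 and -0.24. Over all genes tested, 46.4%, 46.2%, 53.3% and 52.4% were above 0 on the same arrays, with medians between -0.024 and 0.022. Of 21 such members measured on all arrays, 17 had their highest ratio on array 3 and 12 their lowest on array 1, with another 8 lowest on array 4. Among all genes, 30.8% were highest on array 3, 26.4% lowest on array 1 and 21.2% lowest on array 4. Arrays 3 and 4 share a dye orientation.

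Across the ER members, the correlation of ratios was 0.766 for arrays 1 and 4, 0.529 for arrays 3 and 4, 0.324 for arrays 2 and 4, 0.307 for arrays 1 and 2, 0.242 for arrays 2 and 3 and 0.119 for arrays 1 and 3, over 21 to 23 genes. Arrays 1 and 2 share an orientation, as do arrays 3 and 4. Over all members, the correlation was 0.802 for arrays 1 and 4, 0.696 for arrays 1 and 2 and 0.276 to 0.447 for the other 4 pairs. Over all genes, arrays 1 and 4 had 0.189. These are descriptions across genes of the same arrays, which share hybridisation. In the levels, the median SD over the RNAs labelled AAV_Null was 0.246 for the members and 0.176 for all genes, and over the RNAs labelled AAV_Cre 0.204 and 0.177. The AAV_Null SD was the larger in 21 of 38 members (55.3%) and in 47.7% of all genes. The module median followed the arrays, at 0.027 without array 1, 0.055 without array 4, -0.086 without array 2 and -0.12 without array 3.

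Markers of other cell types differed between the arrays too. The summed level of 9 macrophage markers, all well above background in some channel, had log2 ratios of -0.54, -0.52, 0.41 and -0.56 on arrays 1 to 4, with sums from 27940 to 55150 in the RNAs labelled AAV_Cre and from 40120 to 63410 in those labelled AAV_Null. The summed level of 6 neutrophil markers, carried mostly by Csf3r, had -0.27, -0.13, 0.13 and -0.37, and the median of their ratios was -0.31, -0.41, 1.02 and -0.41. Both lists were above 0 on array 3 alone, although Csf3r itself was below 0 on every array, at -0.22, -0.083, -0.12 and -0.19. The summed hepatocyte markers had 0.26, 0.36, -0.56 and -0.90, which followed the dye orientation, over sums of 1243000 to 2328000 and 1797000 to 2319000. Alb, Ttr, Serpina1a, Trf, Ahsg and Cyp2e1, the brightest, gave most of this signal. Tat had the opposite split, at -0.28, -0.25, 0.64 and 0.26, and Cps1 was above 0 on every array. Of the 12, 5 had a dye effect at an adjusted p of 0.05 in limma, beside 2.68% of all genes. Trf was called lower, at -0.52 ± 0.073 (SE, n = 4, limma adjusted p = 0.0447). Plasma cells, which are rich in ER, had 10 markers on the array, of which 8 were well above background in some channel. Their summed ratios, to which Sdc1 and Prdm1 gave most of the signal, were 0.35, 0.39, -0.052 and -0.048 (sums of 5366 to 7613 and 4857 to 5980). The single markers did not share a pattern. Igj, the joining chain of secreted antibodies, had -0.22, 0.23, 0.46 and -0.27, and Prdm1 had 0.86, 0.82, -0.73 and -0.54. Sdc1 was above 0 on every array and Fkbp11 below 0 on every array. Tnfrsf13b and Irf4 were above background in 0 channels.

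The summed ratio of 9 stellate cell markers, 8 of them well above background in some channel, was above 0 on every array. It was 0.18, 0.52, 0.18 and 0.44, with sums of 48170 to 65040 and 33770 to 57530. Dcn, with ratios of 0.15, 0.51, 0.17 and 0.48, gave most of the signal. Of 7 markers tested, 4 were above 0 on every array, beside 12.1% of all genes. Lrat and Pdgfrb were below 0 on array 3 and Col1a2 on array 4. Asns, Vldlr and Edem1 were above 0 on every array too. Asns and Edem1 were highest on array 3 and Vldlr on array 1, while the stellate sum was highest on array 2. All 7 stellate markers tested had fits above 0, and the collagen gene Col3a1 rose by 0.47 in log2, with an SE of 0.065 (n = 4, adjusted p = 0.0441), while Des was well above background in 0 channels. The 9 endothelial markers, all well above background in some channel, had summed ratios of 0.040, -0.062, -0.52 and -0.44, with sums of 18860 to 21280 and 19690 to 28990. The ratios were near 0 with AAV_Cre in Cy5 and lower with AAV_Cre in Cy3. Of these 9, 4 were below 0 on every array, beside 11.5% of all genes, and 2 had fits above 0, with Lyve1 at 0.29 ± 0.055 (SE, n = 4). The summed ratios of the cholangiocyte, B cell, T and NK cell and pancreatic acinar lists lay between -0.34 and 0.43, each on both sides of 0. Cd22 gave most of the B cell sum and Cd4 most of the T and NK sum, where Cd8a, Cd3g and Klrb1c did not pass the filter on dim probes. The part of these cells in the members' ratios was not tested. In whole liver, fewer cells of a type and less RNA per cell cannot be told apart.

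Members were also read by the promoter elements they hold. The 10 ERSE holders had a median fitted log2 ratio of -0.13 and a range of -0.72 to 0.059, with 1 above 0 (Ero1lb). Their array medians were -0.31, 0.023, 0.18 and -0.30. The 5 holders of the composite element, Atf3, Chac1, Asns, Vldlr and Herpud1, had a median of 0.90 and a range of -0.20 to 1.51, with array medians of 0.79, 0.41, 1.19 and -0.24. The 3 highest fitted ratios of the module, those of Asns, Vldlr and Atf3, were among them, and Chac1 and Herpud1 were below 0. No test was made of these groups.

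Around the members, 10 lists of related genes held 192 other genes tested, of which 9 were higher and 2 lower at an adjusted p of 0.05 in limma, beside 2.76% of all genes in either direction, with a median of -0.00062. Other folding genes had 2 higher and 1 lower of 21. Prdx4, the ER peroxiredoxin that uses hydrogen peroxide to form disulfides, fell by 1.05 ± 0.054 in log2 (SE, n = 4, adjusted p = 0.0107), which is 0.484 of its level under AAV_Null. Its ratios of -1.04, -1.04, -0.98 and -1.13 were nearly equal on all arrays. Tmx4 and Txndc11, thioredoxin-like ER proteins, rose by 0.50 and 0.52 (adjusted p = 0.0260 and 0.0406). Prdx4 kept its call without array 3 and lost it without each other array, and every other gene called here lost it without any 1 array, where 13, 0, 37 and 0 of all genes passed without arrays 1 to 4.

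Other ATF4 targets had smaller ratios than Asns. Of 25 tested, 2 were higher and 1 lower, the median was 0.024 and the highest fit was 0.63. Slc1a5, a glutamine transporter, rose by 0.63 ± 0.050 (SE, n = 4, adjusted p = 0.0206), and Gpt2, a mitochondrial alanine aminotransferase, rose by 0.56 ± 0.070 (SE, n = 4, adjusted p = 0.0374). Gpt2 had 0.22, 0.14, 1.10 and 0.80, so its size differed between the dye orientations. Slc3a2, the heavy chain of several amino acid transporters, fell by 0.49 ± 0.061 (SE, n = 4, adjusted p = 0.0371). Trib3, a Tribbles pseudokinase induced by ATF4, had -0.59, -0.97, 0.11 and 0.023 and an adjusted p of 0.0981. Ddit3, which encodes CHOP, was dim and had 0.16, -0.36, 0.035 and 0.26, with a fit of 0.024 ± 0.10 (SE, n = 4). Trib3 and Ddit3 were singled out after their values were seen. Of 19 aminoacyl-tRNA synthetases, several of which ATF4 drives, Cars alone was called, at 0.54 ± 0.068 (SE, n = 4, adjusted p = 0.0379), and the median was -0.018.

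Among UPR regulators, 2 of 17 were higher and 0 lower. Nfe2l2 encodes NRF2, a regulator of antioxidant genes, and rose by 0.70 ± 0.094 (SE, n = 4, adjusted p = 0.0420). Bax, a pore-forming protein of mitochondrial apoptosis and a p53 target, rose by 0.61 ± 0.056 (SE, n = 4, adjusted p = 0.0219). Its ratios of 0.26, 0.42, 0.88 and 0.89 were larger with AAV_Cre in Cy3. Of 27 translocon and glycosylation genes, Srp54a, a signal recognition particle subunit, rose by 0.38 ± 0.056 (SE, n = 4, adjusted p = 0.0499). Of 16 cytosolic heat shock genes, the co-chaperone Dnaja1 rose by 0.41 ± 0.052 (SE, n = 4, adjusted p = 0.0383), while the list's median was -0.096.

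The other 4 lists had 0 genes called. In other ERAD genes, 6 of 20 had an unadjusted p under 0.05, beside 22.6% of all genes, and the smallest was that of Sel1l3, at -0.29 ± 0.058 (SE, n = 4, adjusted p = 0.0812). In ER to Golgi transport it was 3 of 21, led by Mia3, which helps load large cargo, at -0.32 ± 0.052 (SE, n = 4, adjusted p = 0.0582). In eIF2 and its kinases it was 4 of 15, led by Impact, an inhibitor of GCN2 activation, at -0.31 ± 0.052 (SE, n = 4, adjusted p = 0.0635). In the mitochondrial stress response it was 2 of 12, led by the protease Lonp1 at -0.17 ± 0.052 (SE, n = 4, adjusted p = 0.154). Their medians were -0.034, 0.025, 0.051 and -0.057.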

How the data were processed

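Spot intensity and local background of both dyes were read by the authors in version 11.5.1.1 of Agilent Feature Extraction, per the file headers, which also give a processed intensity and a log10 ratio of Cy5 over Cy3. The authors' deposited table holds log2 values. Against the scanner log10 ratios its slopes were 3.34, 3.33, -3.29 and -3.39 on arrays 1 to 4 (log2 of 10 is 3.32), so it gives AAV_Cre over AAV_Null under the labels' dyes. Its column medians were -0.022, -0.038, 0.035 and 0.041, and its normalisation is unknown. The submitters' processing notes name limma. The labels' protocols describe 2 labelling procedures, and the one used was not settled here.

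Mean intensities were corrected by normexp (offset 50) and normalised by loess within array in limma 3.58.1 under R 4.3.3, with control spots at weight 0 and outlier spots left out. Probes well above background in at least 3 of 4 channels of either treatment, with at least 3 arrays, were fitted with treatment and dye effects by lmFit and eBayes, with at most 2 residual and 2.66 prior degrees of freedom. The brightest tested probe stood for each gene name, and Benjamini-Hochberg adjustment ran over 16100 genes. Levels are both channels after loess and quantile normalisation of the mean intensities, and marker sums add them on the linear scale. The median SE was 0.063, and the 4 arrays limit the precision. All arrays came from 1 slide. The fit was tested on simulated data with independent noise in each probe and array, so array shifts that genes share were not simulated. The smallest two-sided p of an exact sign permutation over 4 arrays is 0.125.

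Members and lists were chosen with earlier results of these data known. Values on every array are given for sensors and transcription factors, the 6 highest and 6 lowest fitted ratios, members with an unadjusted p under 0.05 and those with the largest dye effects. The remaining members were shown as well. From each list the called genes, or the gene of smallest p, are named. Exon positions of probes and protein sequences were not analysed here. Figures were drawn with matplotlib 3.10.9.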

Additional observations from a re-analysis of the deposited data

Results flagged for a closer look

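In 2 genes, 1 array lay far from the other 3. Ppp1r15a, the GADD34 gene, had a log2 ratio of -0.18 on array 4 and 0.047 to 0.093 on the others. Srp54a had 0.52 on array 4 and 0.33 to 0.34 on the others. Over 68 genes and medians tested in this way, chance gives about 1 in 20, or 3.4.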

How the results depend on the processing

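The module's count of called genes was 0 with the settings used and in 13 of 20 alternatives, those without 1 array included, where the lowest and highest counts were 0. It was 3 (Asns, Edem1 and Vldlr) with no background correction, median centring in place of loess, the separate-channel fit, the authors' deposited log2 values and a threshold of 0.1, and 1 with the scanner's processed signals (Asns) and with trend and robust eBayes (Edem1). Over all genes the count was 444, and it was 1405, 754, 2496, 1373, 1289, 729 and 1473 in these settings, 81 with a normexp offset of 0, 295 with no filter, 270 with no dye effect, and 0 to 37 without 1 array. Members with a dye effect were 0, but 1 (Sec61b) with no background correction, trend and robust eBayes or a threshold of 0.1, and 9 with median centring. The module median stayed within -0.12 and 0.055, and it turned above 0 with median centring (0.027), without array 1 (0.027), without array 4 (0.055) and on arrays 3 and 4 alone (0.039, against -0.097 on arrays 1 and 2 alone, a split chosen after seeing the data). Direction turned for Atf6 (-0.049, -0.060 and -0.050) and Hyou1 (-0.079, -0.11 and -0.083) with no background correction, processed signals and deposited values, for Hyou1 with outlier spots kept (-0.057) and for Xbp1 with median centring (0.047). Without 1 array it turned for 5 members, with lowest and highest values of -0.051 and 0.0014 for Atf4, -0.51 and 0.077 for Creld2 (also 0.050), -0.036 and 0.11 for Atf6, -0.073 and 0.24 for Atf5, and -0.21 and 0.12 for Xbp1. Of the other comparisons of 18 named members with an alternative, 325 kept side and direction and 17 newly passed. The cause was not tested. Each log2 ratio already pairs the 2 RNAs of an array, so the fit used is paired by array, and no replicate numbers link RNAs between arrays. The members with the largest SE were Chac1, Atf3 and Derl3 (0.36, 0.32 and 0.30).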
